A study of Rattus norvegicus with 15 samples.

Results

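MitoCoat was compared with MitoCoat-mRNA in rat cortical astrocytes injured with H2O2, using 6 of the 15 RNA-seq libraries of the study, 3 for each treatment. MitoCoat is a mitochondria-enriched fraction of rat placenta wrapped in the cationic and fusogenic lipids DOTAP and DOPE, and MitoCoat-mRNA is RNA extracted from such a fraction and encapsulated in the same lipids. The 6 libraries were chosen by their sample titles alone. Both groups were wild-type primary astrocytes that received 100 µM H2O2 for 30 min, the lipid preparation 24 h later, and RNA collection 6 h after that, so the lipids and the oxidative injury were common to both and the load, organelle fraction or RNA, was what differed. The remaining 9 libraries were 3 control libraries given vehicle in place of H2O2, 3 H2O2 libraries given no further treatment, and 3 libraries given H2O2 and then the unmodified mitochondria-enriched fraction. The astrocytes were cultured from cortices of newborn Sprague Dawley rats, whose dissociated cells were shaken to remove microglia. The amounts of the 2 preparations were set on different scales, mitochondria by one mass unit and RNA by another, and are not matched here.

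Mitochondria carry a small circular chromosome that encodes a few subunits of the respiratory chain together with ribosomal and transfer RNAs, whereas most mitochondrial proteins come from nuclear genes whose mRNAs are translated in the cytosol, in part at the outer mitochondrial membrane. A mitochondria-enriched fraction therefore carries both mitochondrially encoded transcripts and nuclear-encoded mRNAs of its donor tissue. Astrocytes support neurons metabolically, buffer oxidative stress and can take up and release mitochondria. RNA sequencing of treated wells reads the astrocytes' own transcripts and any delivered transcripts together. In such bulk samples, fewer cells of a type and less RNA per cell cannot be told apart.

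The libraries held 38270874 to 42826709 counts with MitoCoat and 40539862 to 44527847 with MitoCoat-mRNA. The files identify genes by Ensembl identifier and by exon positions on the Rnor6.0 assembly, without symbols, so genes are given below by position, pathway lists were not analysed here, and astrocyte and other cell-type markers could not be checked against the label. The sample descriptions speak of RNA from mitochondria-enriched fractions, whereas the study's methods place the sequencing after treatment of astrocytes. Levels are in CPM, counts divided by the library total, adjusted by the trimmed mean of M values (TMM), and multiplied by 1000000. A gene was called at a Benjamini-Hochberg adjusted p under 0.05 in edgeR's quasi-likelihood test, and every adjusted p below is from that test over all genes tested. The paper calls the 3 libraries of a group biological replicates, and the labels do not say whether they came from separate cultures. The p-values measure the spread between these libraries, part of which may be technical.

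MitoCoat gave a different transcriptome from MitoCoat-mRNA in 467 genes. Of 15649 genes tested, 245 were higher with MitoCoat and 222 were lower, that is 2.98% in either direction, 1.57% higher and 1.42% lower. Of the 245 higher genes, 211 passed the filter on low counts in the MitoCoat-mRNA libraries alone (1.45% of the 14570 genes that did), and the other 34 passed only with the MitoCoat libraries, which favours their direction. The changes were unequal in size. Among the higher genes 132 exceeded 2-fold, 69 exceeded 4-fold and 44 exceeded 8-fold. Among the lower genes the numbers were 34, 2 and 0. Of the 44 genes over 8-fold, 11 were at 0 with MitoCoat-mRNA and 17 had counts there but a mean under 0.2 CPM. The folds of these genes rest on few or no counts in that group. Fold classes were not counted for the 211 genes alone. The median log2 fold change was 1.13 for the higher genes and -0.66 for the lower genes, beside 0.00032 over all genes tested. In all 467 called genes the 3 MitoCoat libraries did not overlap the 3 MitoCoat-mRNA libraries, which was the case for 19.6% of the genes tested. The counts depended on single libraries, being 129 higher and 80 lower without MitoCoat replicate 2, 108 and 55 without MitoCoat-mRNA replicate 2, and 151 and 109 without MitoCoat-mRNA replicate 3. For 74.1% of the genes tested, the 95% interval of the fold change lay within 2-fold in either direction.

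**Figure D1:**
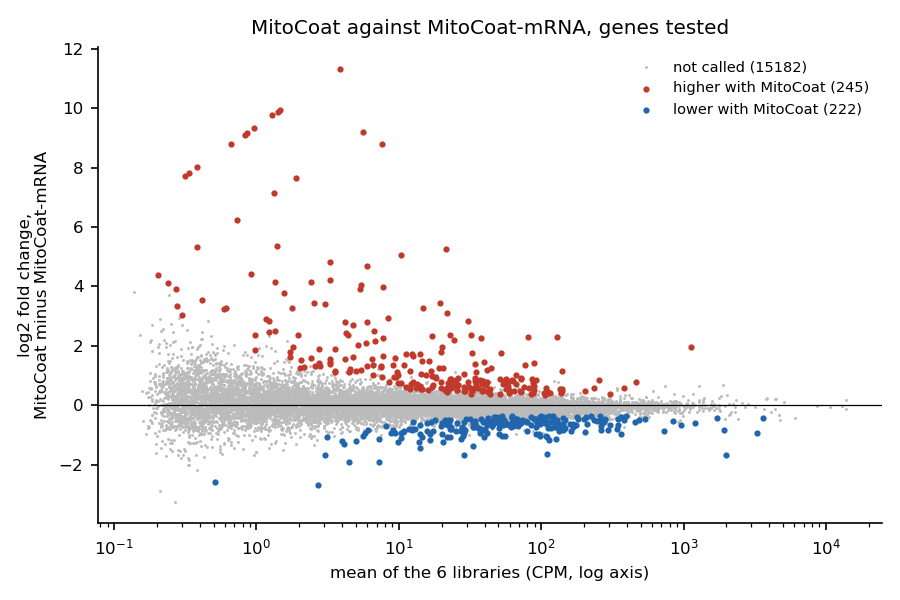
Log2 fold change of MitoCoat minus MitoCoat-mRNA (vertical axis) against the mean level over the 6 libraries in CPM (horizontal log axis), 1 point per gene tested, with the 245 higher genes in red and the 222 lower genes in blue. The higher genes reach far above 8-fold at low levels, and the lower genes gather at higher levels with small changes.

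Most called genes of both directions lay between 10 and 100 CPM, where 131 were higher (1.81% of 7242 tested) and 133 were lower (1.84%). Outside that range the directions differed in number. Of the 3941 genes tested at 1 to 10 CPM, 76 were higher (1.93%) and 17 were lower (0.431%). Of the 2419 genes tested with a mean under 1 CPM, 20 were higher and 1 was lower. Of the 2047 genes at 100 CPM or more, 18 were higher (0.879%) and 71 were lower (3.47%). The median level was 55.8 CPM for the lower genes and 17.2 CPM for the higher genes, beside 17.4 CPM for all genes tested. The lower genes had a median exonic length of 3087.5 bases, compared with 2263 bases for the higher genes and 2256 bases for all genes tested, and the median number of exon blocks was 8 in each set. By chromosome, the called share was highest on chromosome 11, where 11 of 386 genes tested were higher and 9 lower (5.18%), and was 0.947% on the X chromosome.

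The abundant called genes show what the comparison looked like where counts were plentiful. These were picked by level after the values were seen. The most abundant higher gene lies at chr19:14508616-14515456 on the + strand. It was at 1677, 1907 and 1773 CPM in the 3 MitoCoat libraries, against 482, 417 and 485 CPM with MitoCoat-mRNA, a log2 fold change of 1.94 ± 0.094 (SE, adjusted p = 1.1e-05). Every MitoCoat library stood over 3 times the level of every MitoCoat-mRNA library, and the MitoCoat-mRNA mean of 461 ± 38.5 CPM (SD, n = 3) lay beside 472 ± 55.9 CPM (SD, n = 3) in cells left with H2O2 alone. The same gene had risen from 243 ± 18.6 CPM in control cells to that H2O2 level (log2 fold change 0.97, adjusted p = 0.0026), so MitoCoat moved it further in the direction taken with H2O2. It was at 1428 ± 55.6 CPM (SD, n = 3) with unmodified mitochondria.

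A gene at chr4:97782512-97784842 on the - strand was at 591, 679 and 485 CPM with MitoCoat and at 368, 342 and 317 CPM with MitoCoat-mRNA, a log2 fold change of 0.76 ± 0.12 (SE, adjusted p = 0.0091). Its increase with unmodified mitochondria over H2O2 was 0.51 on the log2 scale and did not pass the test (adjusted p = 0.091). A gene at chr2:210522375-210550560 was at 465, 421 and 490 CPM with MitoCoat and at 310, 342 and 271 CPM with MitoCoat-mRNA. The groups were separate for both genes, by less than for the gene on chromosome 19.

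Among the abundant lower genes, one at chr1:21851660-21854773 on the - strand changed most. It was at 714, 901 and 1252 CPM with MitoCoat and at 2887, 3255 and 2880 CPM with MitoCoat-mRNA, a log2 fold change of -1.67 ± 0.178 (SE, adjusted p = 0.0012). The 2 groups were far apart although the MitoCoat libraries varied among themselves, and the MitoCoat-mRNA mean of 3007 CPM stood beside 2978 CPM with H2O2 alone and 2509 CPM in control cells. In the separate comparison of mitochondria with H2O2 its log2 fold change was -1.64 (adjusted p = 9.1e-05). A gene at chr3:109862117-109873466 was at 2430, 2375 and 2016 CPM with MitoCoat and at 3599, 4953 and 4340 CPM with MitoCoat-mRNA (log2 fold change -0.93, adjusted p = 0.0046). The most abundant lower gene, at chr10:90990762-90999506, was at 2910, 3060 and 3204 CPM with MitoCoat and at 3741, 4044 and 4622 CPM with MitoCoat-mRNA (log2 fold change -0.45, adjusted p = 0.045).

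Leaving out called genes whose mean was under 1 CPM, the 2 that fell most were ENSRNOG00000000952 and ENSRNOG00000025371. ENSRNOG00000000952 (chr12:9605873-9607168, - strand, 2 exon blocks) was at 0.37, 0.59 and 1.2 CPM with MitoCoat and at 3.70, 5.38 and 4.86 CPM with MitoCoat-mRNA. Its log2 fold change was -2.70 ± 0.40 (SE, adjusted p = 0.0064), the largest fall among the called genes. It had fallen from 10.6 ± 2.11 CPM in control cells to 5.37 ± 0.90 CPM with H2O2 (SD, n = 3 each, log2 fold change -0.97, adjusted p = 0.025). The MitoCoat-mRNA libraries, at 4.65 ± 0.86 CPM, overlapped those of H2O2, and both organelle groups were lower, at 0.72 ± 0.43 CPM with MitoCoat and 0.87 ± 0.25 CPM with unmodified mitochondria (SD, n = 3 each). ENSRNOG00000025371 (chr2:124400679-124405331, + strand, 3 exon blocks) was at 1.73, 2.00 and 1.88 CPM with MitoCoat and at 6.02, 7.38 and 7.74 CPM with MitoCoat-mRNA. Its log2 fold change was -1.92 ± 0.20 (SE, adjusted p = 0.0011). It too had fallen with H2O2, from 10.4 ± 1.81 to 6.22 ± 0.42 CPM (SD, n = 3 each, log2 fold change -0.73, adjusted p = 0.035).

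The 2 higher genes with the largest fitted log2 fold change, ENSRNOG00000016871 and ENSRNOG00000017620, had counts with the organelle preparations and none in the other groups. A fitted fold over 0 counts has no measured size, so this rank holds for fitted values only. ENSRNOG00000016871 (chr17:39188311-39463715, + strand, 14 exon blocks) had 561, 344 and 64 counts with MitoCoat and 142, 105 and 20 counts with unmodified mitochondria. It had 0 counts in all 3 MitoCoat-mRNA libraries, and likewise in all H2O2 and control libraries. ENSRNOG00000017620 (chr1:79396578-79402814, + strand, 4 exon blocks) had 221, 101 and 48 counts with MitoCoat, 40, 56 and 12 counts with unmodified mitochondria, and 0 counts elsewhere. Measured against a floor of 6 counts in each MitoCoat-mRNA library (3 read pairs, if both mates of each pair were counted), the mean level was at least 54.4-fold higher with MitoCoat than with MitoCoat-mRNA for the first gene and at least 20.8-fold higher for the second. Without MitoCoat replicate 1 these bounds were 35.7-fold and 13.1-fold. Both genes passed the filter on low counts only with the MitoCoat libraries, which favours their direction, and their adjusted p-values of 0.0061 and 0.0041 are given as a description. The span of ENSRNOG00000016871 overlaps 3 other annotated genes, 2 of them on its own strand, so some of its reads may be shared. Floors and bounds cover counting error only.

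A total of 19 genes had 0 counts in every MitoCoat-mRNA library and at least 5 counts in each MitoCoat library, and 0 genes showed the reverse. This set was defined by the same 6 libraries, so its levels there are a description. At a minimum of 1 count per library the numbers were 101 and 28, and at a minimum of 10 counts they were 11 and 0. Of the 19 genes, 11 passed the filter on low counts and were tested. Summed over the 19 genes, the level was 48.5, 36.8 and 11.3 CPM with MitoCoat, and MitoCoat replicate 3 was the lowest of its group in 16 of them. The sum was 16.0, 15.3 and 5.83 CPM with unmodified mitochondria, libraries that did not enter the choice. It was at most 0.341 CPM in the 6 H2O2 and control libraries. The genes were therefore seen with both organelle preparations, and the ranges of the 2 preparations overlapped.

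Of the 19 genes, 11 lay in 3 stretches of 2 chromosomes. A group of 4 neighbours at chr1:79122608-79481865 summed to 574, 335 and 131 counts with MitoCoat and to 144, 136 and 58 counts with unmodified mitochondria. Another 4 genes at chr17:3820606-4110538, alike in build with 8 to 9 exon blocks and 1189 to 1349 exonic bases, had 275, 245 and 28 counts with MitoCoat and 78, 124 and 20 counts with unmodified mitochondria. None of these 4 passed the filter on low counts. A further 3 genes at chr17:39188311-39575720 had 743, 462 and 84 counts with MitoCoat and 180, 145 and 32 counts with unmodified mitochondria. These 11 genes had 0 counts in all 9 remaining libraries. Summed over each stretch, replicate 3 was the lowest of both organelle groups.

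**Figure D2:**
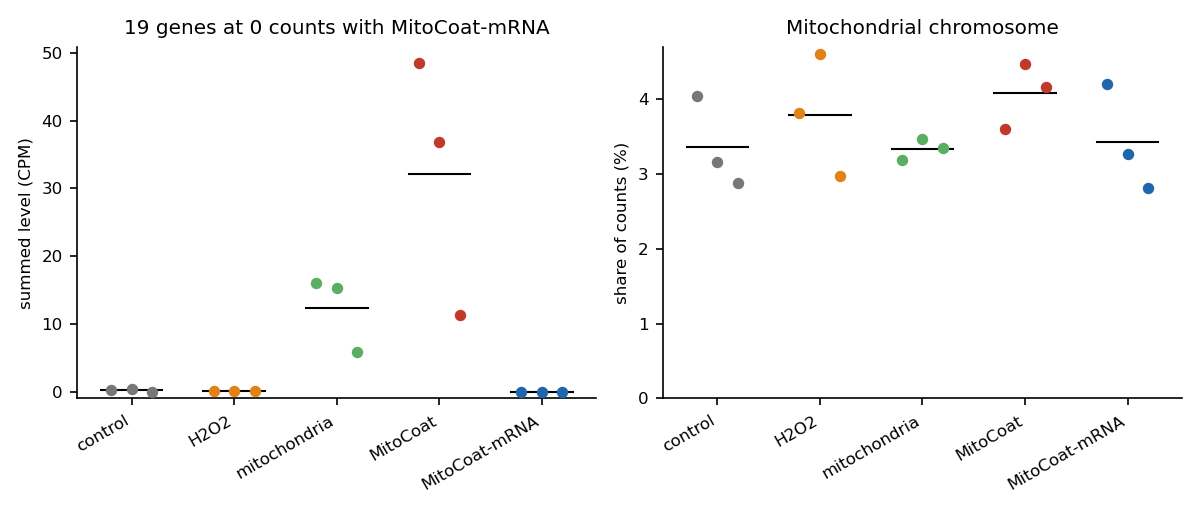
Left, summed level in CPM of the 19 genes with 0 counts in all MitoCoat-mRNA libraries, and right, share of all counts on the mitochondrial chromosome in percent, with 1 point per library, 3 libraries per group and a line at the mean. The 19 genes stand at 48.5, 36.8 and 11.3 CPM with MitoCoat and at 16.0, 15.3 and 5.83 CPM with unmodified mitochondria, ranges that overlap, and the mitochondrial shares of the groups overlap too.

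Some called genes also lay near each other on the chromosomes. Joining called genes of 1 direction with gaps of at most 500000 bases gave 17 neighbourhoods of at least 3 higher genes, holding 62 of the 245, and 3 neighbourhoods of lower genes, holding 11 of the 222. The higher neighbourhoods held 164 genes tested and the lower ones 36, so most genes tested in them were not called. The number of neighbourhoods that gene density alone would give was not tested. The neighbourhoods were chosen by these calls, so their sums in the 6 libraries are a description. In all 20 the summed levels of the 2 groups did not overlap. The number of higher neighbourhoods fell to 7 without MitoCoat replicate 2, to 10 without MitoCoat-mRNA replicate 1, to 5 without MitoCoat-mRNA replicate 2 and to 8 without MitoCoat-mRNA replicate 3, and was 6 with gaps of at most 100000 bases. In the mitochondria against H2O2 comparison, whose libraries played no part in the choice, the same direction was called for 50 genes out of 62 in the higher neighbourhoods and for 6 out of 11 in the lower ones, beside 1.86% and 1.73% of all genes tested there. Of the 62, 46 passed the filter on low counts in the H2O2 libraries alone, and 38 of these were called. The other 16 did not pass there, and their 12 calls are a description.

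Among the higher neighbourhoods, 2 were near 0 without an organelle preparation. At chr17:38710432-39575720, 6 higher genes of 7 tested summed to 31.8, 22.4 and 3.91 CPM with MitoCoat and to at most 0.275 CPM with MitoCoat-mRNA. At chr1:79122608-79708835, the 4 genes tested, of 10 annotated, summed to 27.8, 18.1 and 5.99 CPM with MitoCoat and to at most 0.0458 CPM with MitoCoat-mRNA. Within each, MitoCoat replicate 1 was the highest library and replicate 3 the lowest. Members at or near 0 with MitoCoat-mRNA passed the filter on low counts only with the MitoCoat libraries, which favours their direction. With unmodified mitochondria the sums were 8.90, 6.59 and 1.38 CPM on chromosome 17 and 8.43, 7.0 and 1.80 CPM on chromosome 1, and replicate 1 was again the highest library and replicate 3 the lowest.

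Other neighbourhoods had members with counts in every group. On chromosome 12, where 4 genes summed to a ratio of means of 1.92, the gene with the smallest adjusted p of its neighbourhood, at chr12:41227825-41307352 on the - strand, was at 32.6, 55.8 and 37.6 CPM with MitoCoat and at 1.35, 1.03 and 0.91 CPM with MitoCoat-mRNA, a log2 fold change of 5.25 ± 0.24 (SE, adjusted p = 1.1e-05). Its neighbour at chr12:41200718-41211909, on the + strand, was at 8.37, 14.4 and 11.8 CPM with MitoCoat and at 0.35, 0.25 and 0.71 CPM with MitoCoat-mRNA. Another neighbour at chr12:41340815-41363161 had 50, 16 and 30 counts with MitoCoat and 0 counts in each MitoCoat-mRNA library. The fourth member, at chr12:40695520-40709462, differed by only 0.42 on the log2 scale (adjusted p = 0.048).

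At chr11:37891156-38103290, all 3 genes tested were higher. They summed to 129, 184 and 137 CPM with MitoCoat and to 29.5, 27.0 and 30.0 CPM with MitoCoat-mRNA, a ratio of means of 5.20. Most of the sum came from a gene at chr11:38035450-38059950, at 115, 166 and 126 CPM with MitoCoat and at 27.5, 25.6 and 28.6 CPM with MitoCoat-mRNA. A second stretch of chromosome 11, at chr11:67724076-68137535, also had all 3 of its tested genes higher, with sums of 132, 137 and 130 CPM against 53.5, 54.0 and 65.2 CPM. The 3 log2 fold changes of that stretch were close to each other, between 1.12 and 1.24.

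On chromosome 7, 3 higher genes of 9 tested at chr7:118473070-118970135 summed to 25.7, 38.7 and 28.2 CPM with MitoCoat and to 1.70, 0.96 and 1.05 CPM with MitoCoat-mRNA, a ratio of means of 24.9. The 2 larger contributors, at chr7:118473070-118474609 and chr7:118927008-118933812, had log2 fold changes of 4.05 and 5.05. On chromosome 15, the gene at chr15:34282936-34288138 was at 55.0, 63.8 and 54.9 CPM with MitoCoat and at 23.2, 18.8 and 21.0 CPM with MitoCoat-mRNA. On chromosome 10, the gene at chr10:88599680-88611105 was at 20.5, 32.3 and 27.9 CPM with MitoCoat and at 2.75, 2.08 and 3.43 CPM with MitoCoat-mRNA. These stretches had no MitoCoat library within the range of the MitoCoat-mRNA libraries. A further 6 neighbourhoods, with 20 called genes, had smaller ratios of summed levels. They lay at chr20:5467942-5485926, chr10:39109522-39870188, chr8:21890319-22057209, chr1:168971274-169534896, chr10:108527740-109891879 and chr4:162281574-162943981, with ratios of means from 1.35 to 1.81 and sums that averaged 42.2 to 223 CPM with MitoCoat-mRNA. The gene at chr1:168971274-168972725 was at 0.76, 0.74 and 0.75 CPM with MitoCoat and at most 0.0458 CPM with MitoCoat-mRNA, and it passed the filter on low counts only with the MitoCoat libraries.

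In some stretches replicate 3 was the highest library of both organelle groups. At chr14:18576355-19159923, 5 higher genes of 10 tested summed to 212, 183 and 328 CPM with MitoCoat and to 68.5, 40.7 and 33.1 CPM with MitoCoat-mRNA. The leading gene, at chr14:18743685-18745457, was at 190, 162 and 289 CPM with MitoCoat and at 62.9, 36.6 and 29.7 CPM with MitoCoat-mRNA (log2 fold change 2.30 ± 0.29, SE, adjusted p = 0.0025). With unmodified mitochondria replicate 3 stood apart at 547 CPM for the sum, against 222 and 191 CPM in replicates 1 and 2. Elsewhere replicate 3 was the lowest library for this sum, with MitoCoat-mRNA, with H2O2 alone and in control cells (136, 99.6 and 55.5 CPM in control cells). The single-block gene at chr1:252944103-252946170 was at 1.2, 5.79 and 12.1 CPM with MitoCoat and at 1.13, 6.4 and 17.9 CPM with unmodified mitochondria. It was at 0.05, 0.23 and 0.37 CPM with MitoCoat-mRNA and at 0.25, 0.44 and 2.01 CPM in control cells, where replicate 3 lay above MitoCoat replicate 1. Replicate 3 was the highest library of these 4 groups for this gene. At chr2:248178389-248409570, 3 higher genes of 5 tested summed to 50.4, 54.7 and 91.1 CPM with MitoCoat and to 28.8, 25.3 and 23.1 CPM with MitoCoat-mRNA. With unmodified mitochondria they summed to 62.2, 59.0 and 173 CPM.

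**Figure D3:**
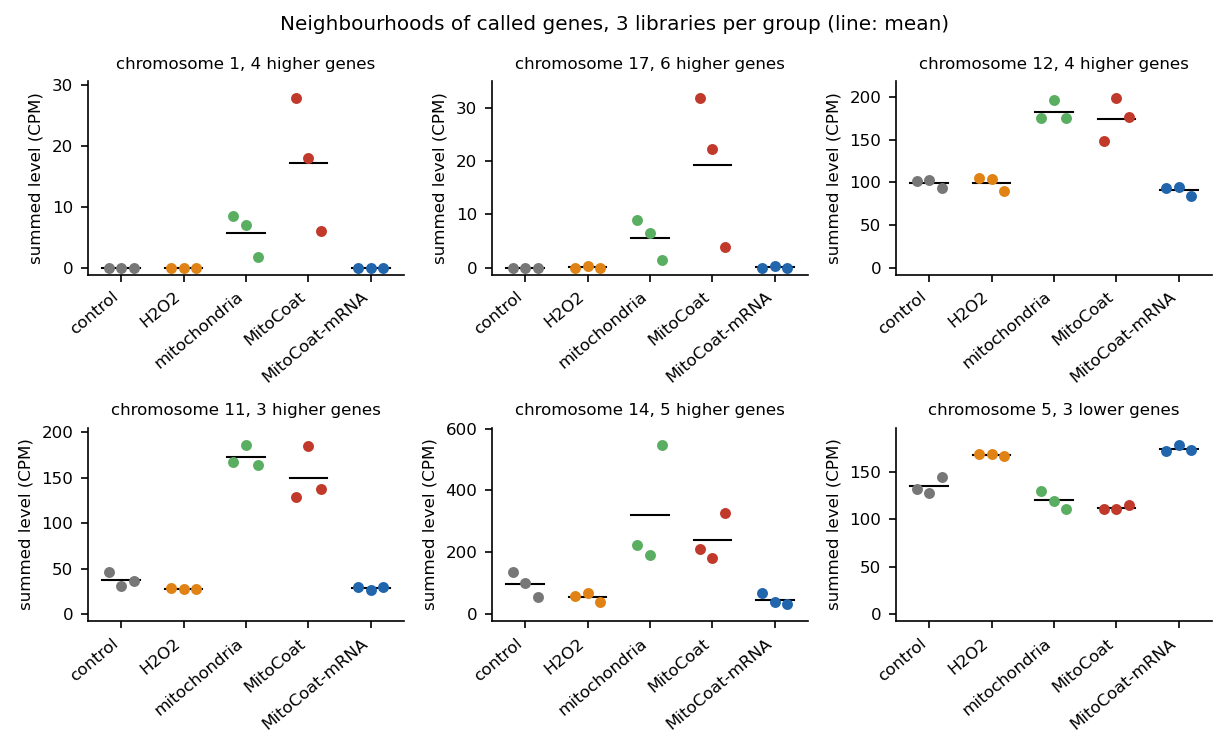
Summed level in CPM of the called genes of 6 neighbourhoods, with 1 point per library (replicates 1 to 3 from left to right), 3 libraries per group and a line at the mean. MitoCoat and unmodified mitochondria lie above MitoCoat-mRNA, H2O2 and control in the 5 neighbourhoods of higher genes and below MitoCoat-mRNA and H2O2 in the neighbourhood of lower genes on chromosome 5.

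The neighbourhoods of lower genes were of small change. At chr5:159755535-160158386, 3 lower genes of 10 tested summed to 111, 111 and 115 CPM with MitoCoat and to 172, 178 and 173 CPM with MitoCoat-mRNA. Of these 3 genes, 2 had risen with H2O2. One of them, at chr5:159845774-159874206, was at 29.6, 26.5 and 30.5 CPM with MitoCoat, at 55.7, 55.2 and 52.2 CPM with MitoCoat-mRNA, and at 32.9, 26.8 and 31.2 CPM in control cells. Its levels with MitoCoat thus overlapped those of control cells. At chr4:122314458-123557501, 5 lower genes of 13 tested summed to 203, 210 and 188 CPM with MitoCoat and to 345, 377 and 323 CPM with MitoCoat-mRNA. At chr11:31389514-32069249, 3 lower genes of 13 tested summed to 172, 168 and 161 CPM against 235, 233 and 245 CPM. In this stretch 1 other gene tested was called higher with MitoCoat. Of the 3 lower genes there, 1 was called lower in mitochondria against H2O2.

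The spread among MitoCoat libraries was wider for the larger changes, which were also at lower levels, and the part of the level in the spread was not tested. For the 113 higher genes under 2-fold, with a median of 44.7 CPM with MitoCoat, the highest MitoCoat library was a median of 1.17 times the lowest. That ratio was 2.44 for the 44 genes over 8-fold, with a median of 2.77 CPM, and in 10 of them it exceeded 4. Of the 11 genes over 8-fold that were at 0 in MitoCoat-mRNA, replicate 1 was the highest MitoCoat library in 9 and replicate 3 the lowest in 10. Of the 16 genes over 8-fold with a MitoCoat-mRNA mean of at least 0.2 CPM, the ratio was 1.78 at a median of 10.2 CPM, and replicate 1 was the highest in 0 and replicate 2 in 11. The remaining 17 genes over 8-fold, with counts in MitoCoat-mRNA but a mean under 0.2 CPM, were highest in replicate 1 in 7, in replicate 2 in 4 and in replicate 3 in 6. Differences between these sets were not tested.

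Whether the called genes also differed with organelles in other wells was examined in mitochondria against H2O2. The paper divided isolated placental mitochondria among its preparations, so the organelles given to the 2 organelle groups may share a source. The comparison shares no library with the one above, and 3.59% of all genes tested in it were called. Of the 245 higher genes, 239 were tested there, 237 were higher with mitochondria, and 177 (74.1%) were called higher, beside 1.86% of all genes tested. A gene that does not pass the filter on low counts in the H2O2 libraries alone enters that test only with the mitochondria libraries, which favours a higher value there. This was so for 32 of the 239. Of the 207 that passed in the H2O2 libraries alone, 206 were higher and 153 (73.9%) were called, beside 1.75% of all genes passing there (a split added after seeing the data). Of the 222 lower genes, 222 were tested and lower with mitochondria, and 144 (64.9%) were called lower, beside 1.73% of all genes tested. The median log2 fold changes were 1.08 and -0.57, beside -0.011 over all genes tested. No called gene was called in the opposite direction. The 321 genes called in the same direction were 205 without mitochondria replicate 1.

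**Figure D4:**
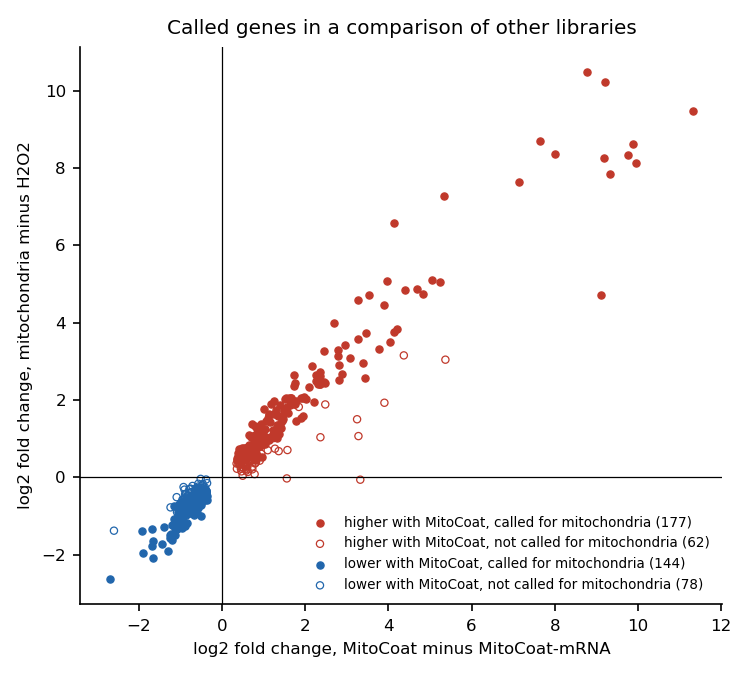
Log2 fold change of mitochondria minus H2O2 (vertical axis) against that of MitoCoat minus MitoCoat-mRNA (horizontal axis) for the called genes tested in both, filled where also called for mitochondria. Of the 239 higher genes 237 lie above 0, and all 222 lower genes lie below 0.

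The size of the 2 differences was compared with an interaction term over the 12 libraries. Of 16378 genes tested, edgeR called 0 interactions, with 553 genes (3.38%) at an unadjusted p under 0.05 and a smallest adjusted p of 0.998. Of the 467 called genes, 39 had an unadjusted p under 0.05 and 0 were called. These values do not show that the 2 differences are equal.

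The 2 preparations were also set beside H2O2 alone, in comparisons that share libraries with the one above and with each other. With MitoCoat, 183 of the 245 higher genes and 175 of the 222 lower genes were called in the same direction against H2O2, beside 3.05% of all genes called in either direction. With MitoCoat-mRNA, edgeR called 0 of 15506 genes against H2O2, with 463 at an unadjusted p under 0.05, and DESeq2 also called 0. The median log2 fold change of MitoCoat-mRNA against H2O2 was -0.034 for the higher genes and -0.032 for the lower genes, and that of MitoCoat against H2O2 was 1.08 for the former and -0.71 for the latter.

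Some of these genes had already moved with the injury. In H2O2 against control, in which 7.19% of all genes tested were called, 11 of the 219 tested higher genes were called higher and 15 lower, and of the 222 lower genes 19 were called higher and 37 lower, beside 2.97% higher and 4.22% lower of all genes tested. Taken as directions, 34 called genes moved back with MitoCoat relative to the change with H2O2 and 48 moved further. Both counts depended on single libraries. Genes moved back numbered 19 without H2O2 replicate 2, 13 without H2O2 replicate 3, 10 without control replicate 2 and 21 without control replicate 3, and genes moved further numbered 28 without H2O2 replicate 3, 20 without control replicate 2 and 19 without control replicate 3.

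Transcripts of the mitochondrial chromosome did not differ detectably between the preparations. The tables used here list 13 genes over 200 bases and 22 of 60 to 75 bases on the mitochondrial chromosome, and the ribosomal RNA genes were not analysed here. All 13 longer genes were higher with MitoCoat in the mean, by a median of 0.19 on the log2 scale (0.09 to 0.42), but edgeR called 0 of them (lowest adjusted p 0.34), with 0 at an unadjusted p under 0.05. Their 95% intervals all lay within 2-fold. The most abundant per length, at MT:5323-6867, was at 12660, 15850 and 16110 CPM with MitoCoat and at 15230, 11800 and 11900 CPM with MitoCoat-mRNA, and the 2 groups overlapped. The gene with the largest difference, at MT:10160-11537, was at 196, 239 and 208 CPM with MitoCoat and at 227, 138 and 112 CPM with MitoCoat-mRNA, a log2 fold change of 0.42 (95% interval -0.06 to 0.90). MitoCoat-mRNA replicate 1 lay within the MitoCoat range for this gene.

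Of the 22 short genes, 17 passed the filter on low counts and edgeR called 0, with 1 at an unadjusted p under 0.05. That one, at MT:9800-9867, was at 0.83, 0.54 and 0.78 CPM with MitoCoat and at 0.30, 0.46 and 0.27 CPM with MitoCoat-mRNA (adjusted p = 0.33). The libraries were made from polyadenylated RNA according to the labels.

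The listed mitochondrial genes together took 4.08% ± 0.445 of the counts with MitoCoat and 3.43% ± 0.711 with MitoCoat-mRNA (SD, n = 3 each). The difference of 0.654 percentage points was smaller than the spread of the MitoCoat-mRNA libraries (two-sided exact permutation test, p = 0.3, where 3 against 3 cannot go below 0.1). The share was 3.33% ± 0.146 with unmodified mitochondria, 3.79% ± 0.820 with H2O2 and 3.36% ± 0.610 in control cells (SD, n = 3 each).

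**Figure D5:**
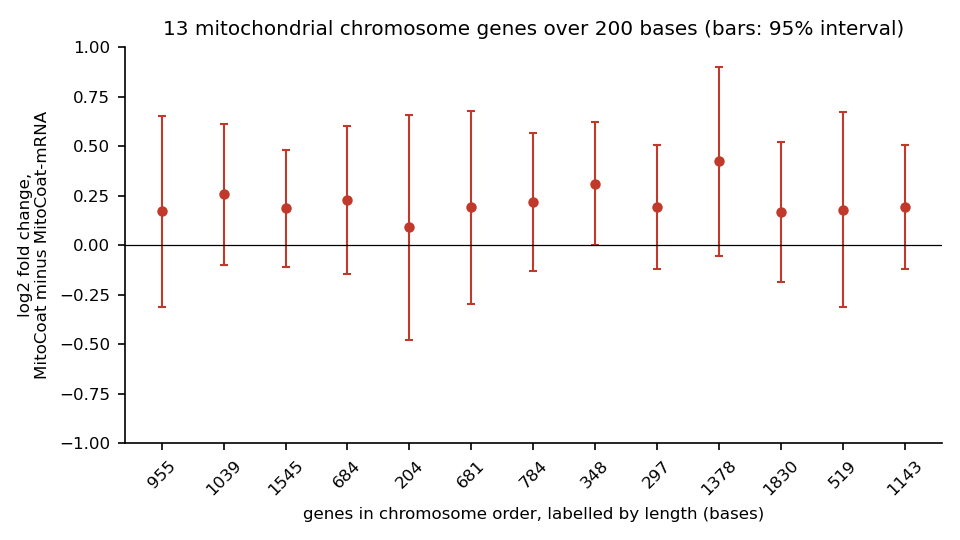
Log2 fold change of MitoCoat minus MitoCoat-mRNA with its 95% interval for the 13 annotated genes over 200 bases on the mitochondrial chromosome, in chromosome order and labelled by length in bases. All 13 points lie above 0, between 0.09 and 0.42, and all 13 intervals include 0.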

How the data were processed

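Bulk RNA-seq was measured in 15 libraries, 3 in each of 5 groups, and the 6 MitoCoat and MitoCoat-mRNA libraries were compared. The deposited values are raw counts per gene: reads had been trimmed by the authors (Trimmomatic 0.36) and mapped by STAR 2.5.2b onto Rnor6.0 (Ensembl annotation), with exonic counts of unique alignments from featureCounts (Subread 1.5.2), by strand where applicable. Between 95.9% and 98.4% of the counts from 1 to 10 were even in each library, as if both mates of a pair were counted, which is not given in the sources used here (of the MitoCoat counts of the 19 genes at 0 with MitoCoat-mRNA, 73.7% were even), so the floor was set to 6 counts. A further file was identical to that of an unmodified mitochondria library and was not used.

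Genes passing filterByExpr were tested with edgeR 4.0.16 (R 4.3.3; TMM, quasi-likelihood F test, two-sided, adjusted p under 0.05), and DESeq2 1.42.0 was the alternative. Replicates differed by 23.4 to 49.9 chi-square units per gene, so none was a copy. The test was checked on simulated data. Genes named by identifier are the 2 highest and 2 lowest by log2 fold change among called genes whose groups did not overlap and whose mean reached 1 CPM. Of 32552 identifiers, 0 matched a symbol, so the 40 pathway and marker lists were not analysed. Members and lists were chosen with earlier results of these data known. The alternatives were other tests, scalings and filters, the replicate block and leaving out each library. Figures were drawn with matplotlib 3.10.9.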

Additional observations from a re-analysis of the deposited data

How the results depend on the processing

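The 2 lower genes named by identifier stayed called under every alternative, with adjusted p of at most 0.045 by edgeR. The 2 higher ones, at 0 in every MitoCoat-mRNA library, stayed called where tested, but their direction could not change and they could not be tested with at least 10 counts in every library. The counts of called genes moved more. DESeq2 gave 398 higher and 430 lower genes on the 6 libraries and 485 and 529 on all 15. Keeping every gene with any count gave 324 and 342, and a minimum change of 1.2-fold gave 151 and 94. Leaving out 1 library gave 108 to 246 higher and 55 to 313 lower genes. The cause of these shifts was not tested. Size factors by RLE, the edgeR fit on all 15 libraries, at least 10 counts in every library and counts divided by 2 (chosen after seeing the data) stayed within 1.5 times of both counts. Of the genes called in MitoCoat against MitoCoat-mRNA, those called the same way in mitochondria against H2O2 numbered 377 with DESeq2 and 205 to 290 without 1 library. Against control, genes moved back numbered 53 and genes moved further 77 with DESeq2, and 10 to 32 and 19 to 55 without 1 library. The neighbourhoods of higher genes numbered 5 to 30 over the alternatives, and 20 with gaps of at most 1000000 bases.

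The deviations of same-numbered libraries of the 2 groups correlated at 0.033, 0.182 and 0.174. Every MitoCoat library correlated best with its own number, as did MitoCoat-mRNA replicates 2 and 3. MitoCoat-mRNA replicate 1 correlated better with MitoCoat replicate 2 (0.056) than with its own number. The main test did not take the numbers as pairs, and a replicate block was run as an alternative. With the replicate block 206 genes were higher and 190 lower, of which 357 were among the 467. Among the 467, the block gave 406 called the same way in mitochondria against H2O2, 46 moved back and 52 moved further. The mitochondrial share of counts differed by 0.654 percentage points in pairs (exact sign-flip permutation, p = 0.5, where 3 pairs cannot go below 0.25), by 0.541 on adjusted totals, and by 0.345 to 1.04 without 1 library. The alternatives planned for pathway lists were not run. At this depth and spread, the 95% interval lay within 1.5-fold in either direction for 55.2% of the genes tested.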
